A study of Mus musculus with 4 samples.

Results

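The genes described here are the 4 early growth response genes Egr1, Egr2, Egr3 and Egr4 and the 2 genes of their corepressors, Nab1 and Nab2. They are 6 of the 21938 protein-coding genes of the annotation. They were chosen by name, not by a measured value, though with earlier results of these data known. Trimethylation of lysine 4 of histone H3 (H3K4me3) was measured by chromatin immunoprecipitation and sequencing in female B6CASTF1/J mice, first-generation hybrids of C57BL/6J and CAST/EiJ, aged 2 months, with the left cerebral cortex as the tissue. There were 4 libraries, a pair of technical replicates for pool J (biological replicate 1) and another pair for pool I (biological replicate 2), and each pool combined 4 biosamples. The labels name no treatment and no contrast of genotype or condition, and whether the biosamples of a pool came from separate animals is not stated, so pools may differ for technical reasons alone. Peaks were read from 1 list per pool and from a replicated list made by the authors from both pools. In the bulk tissue, fewer cells carrying a mark and less mark per cell cannot be told apart.

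Egr proteins are zinc finger transcription factors that bind GC-rich sites, and their genes are immediate early genes: in neurons, synaptic activity induces them within minutes, before any new protein is made, through serum response factor with its Elk partners and through the cAMP response element binding protein Creb1. Nab1 and Nab2 have no DNA-binding domain of their own, dock on an inhibitory region of Egr1, Egr2 and Egr3, and repress Egr targets in part through the NuRD complex with its helicase Chd4. H3K4me3 sits around active and poised promoters, usually as a short domain past the transcription start.

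All 6 promoters carried H3K4me3 in each list, that is, a peak lay within 1000 bases of an annotated transcript start. Over all protein-coding genes this held for 65.2% in the replicated list, and 63.6% were marked in each of the single-pool lists. Neighbouring peaks no more than 1000 bases apart were joined into a domain, and each gene took its widest domain. The domains of the 6 genes had a median width of 5122 bases in the replicated list, 4365 in pool J against 5201 in pool I, against 2124, 2026 and 2194 bases over all marked genes in the same lists. In the replicated list 3 of the 6 domains (Egr1, Egr3 and Nab2) were among the widest 5% of marked genes, which begin at 5166 bases and make up 5% of them. In both single-pool lists alike this held for Egr1 and Egr3, against 4% of the genes marked in both. The call depended on the merging distance. With peaks up to 2500 bases apart merged, the widest 5% began at 5981 bases and Egr1, at 5970, fell just short. With only touching peaks merged, the widest 5% began at 4394 bases and Nab2, at 3953, was below that. The highest enrichment, the authors' ratio for a gene's strongest promoter peak, did not stand high in the same way: its median was 17.3 over the 6 genes and 20.8 over all marked genes in the replicated list, 19.8 against 20.6 in pool J, and 19.4 against 20.8 in pool I.

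**Figure D1:**
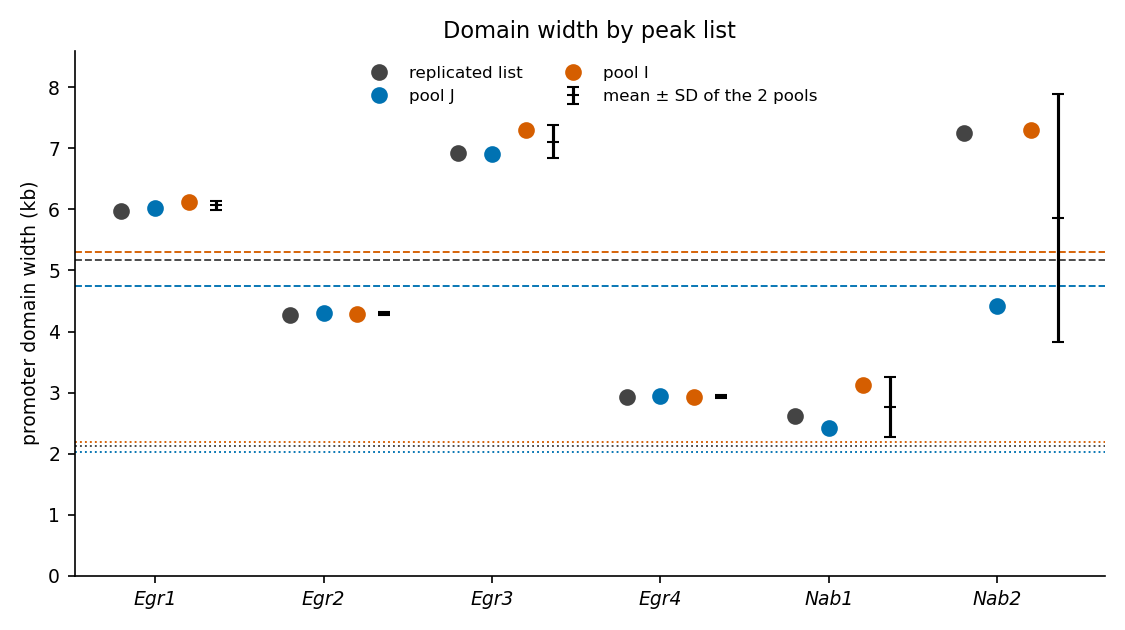
Width of the promoter domain in kilobases for each gene in the replicated list (grey), pool J (blue) and pool I (orange), with the mean ± SD of the 2 pools in black. Dashed lines mark where the widest 5% of marked genes begin and dotted lines the median of all marked genes, both in the colour of their list; Egr1 and Egr3 lie above the dashed line of each list, and Nab2 lies below it in pool J.

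Egr3 and Egr1 had the widest domains of the 6 in pool J, and Egr3 and Nab2 in pool I. The pools put Egr3 (6916 bases in pool J, 7301 in pool I) above Egr1 (6019 and 6123) with no overlap, Egr1 above Egr2 (4308 and 4279), and Egr2 above Egr4 (2950 and 2921). Nab1, with 2417 bases in pool J against 3117 in pool I, lay on both sides of Egr4. Nab2, with 4422 bases in pool J against 7296 in pool I, lay on both sides of Egr1, and its place in the order is not set by these data. The domains of Egr1, Egr2, Egr3 and Egr4 differed little between pools: the ratio of pool J over pool I was 0.983, 1.01, 0.947 and 1.01 in that order, against a median of 0.934 over the 13961 genes marked in both. Nab1, at 0.775, and Nab2, at 0.606, differed more. The size of their log2 ratio was at percentiles 88.0 and 97.1 of those genes, of which 95.2% had a ratio within 1.5-fold.

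The annotated genes of this family are short, and the domains were long against them. Egr4 (2469 bases), Egr1 (5162 bases) and Egr3 (5412 bases) had a promoter domain wider than the gene itself in each list, at 1.18, 1.16 and 1.28 times the gene's length in the replicated list. Over all marked genes this held for 3.74%. Among marked genes of up to 10 kb, a class that holds all of the 6 but Nab1, it held for 15.8%, so 3 of 5 stand beside that share. No member's domain spanned its gene from end to end, as 2.01% of marked genes had it, since each stopped short of the gene's 3′ end. In the replicated list the share of the gene under the domain was 98.1% for Egr4, 91.5% for Nab2, 87.1% for Egr1, 71.4% for Egr3 and 60.6% for Egr2. The median over the 3368 marked genes of up to 10 kb was 25.3%. For Nab2 the share was 54.5% in pool J, below the 60.4% of Egr2 there, and 92.1% in pool I. Nab1 is 43386 bases long, and 4.75% of it was covered in the replicated list.

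**Figure D2:**
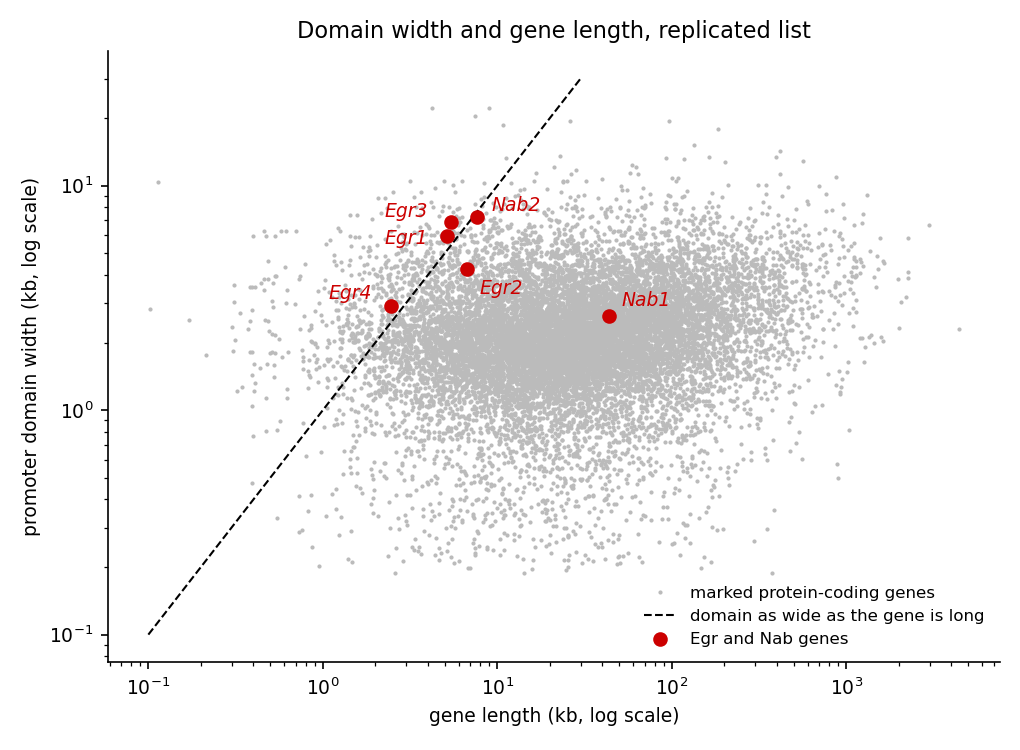
Promoter domain width against gene length, both in kilobases on log scales, for all marked protein-coding genes of the replicated list (grey) and the Egr and Nab genes (red). Points above the dashed line have a domain wider than the gene is long; Egr1, Egr3 and Egr4 lie just above it, Nab2 just below, and Nab1, the longest of the 6, far below.

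Egr1, the member best known for induction in cortex by activity, lies on the plus strand of chromosome 18 at 34859823 to 34864984 (mm10). Its domain in the replicated list was 1 unbroken peak of 5970 bases, from 34858350 to 34864319. With 6019 bases in pool J against 6123 in pool I, the mean was 6071 ± 73.5 bases (SD, n = 2 pools), and the width percentile among marked genes was 97.0, 98.0 and 97.1 in the replicated, pool J and pool I lists. The domain ran from 1473 bases upstream of the 5′-most start to 665 bases before the gene's end and lay over 85.2% of the exon bases. The 5′-most start belongs to transcript Egr1-201. The start of Egr1-202 is 1384 bases further in, and the summit, the authors' highest point of the peak, was 164 bases past it in the replicated list, 162 bases in pool J against 653 bases in pool I. The enrichment ranks of the pools were far apart. Egr1 had 26.1 in pool J (percentile 78.9) and 19.5 in pool I (percentile 43.5), with 26.0 in the replicated list. That gap of 35.3 percentile points is itself at percentile 96.4 of the 13961 genes marked in both pools, whose median gap was 6.51 points.

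Egr3, which is induced later and longer than Egr1 after activity and is known for its roles in muscle spindles and memory, lies on the plus strand of chromosome 14 at 70077203 to 70082614. Its domain, from 70074144 to 70081064, held 6921 bases in the replicated list, 6916 in pool J against 7301 in pool I (mean of the pools 7108 ± 272, SD, n = 2), at width percentiles 98.4, 98.9 and 98.5. It reached 3059 bases upstream of the 5′-most annotated start and 3861 bases downstream. Only a small share of genes had so long an upstream arm: among the 7848 genes whose domain holds starts of that gene alone, the median was 531 bases upstream and 1367 downstream, and the upstream arm of Egr3 was at percentile 99.8 and that of Egr1 at 97.3. The strongest point also lay upstream, 2108 bases before the start in the replicated list and 2072 in pool J, but in pool I it was 746 bases past the start. Enrichment was 18.9 in pool J against 19.4 in pool I, and 13.4 in the replicated list, below both. A replicated value below both pools was found for Egr3, Egr4 and Nab1, against 14.9% of the 13960 genes marked in all 3 lists. The enrichment percentile of Egr3 was 20.4 in the replicated list, but 40.9 for pool J against 43.1 for pool I, so the pools placed it somewhat below the middle of marked genes.

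**Figure D3:**
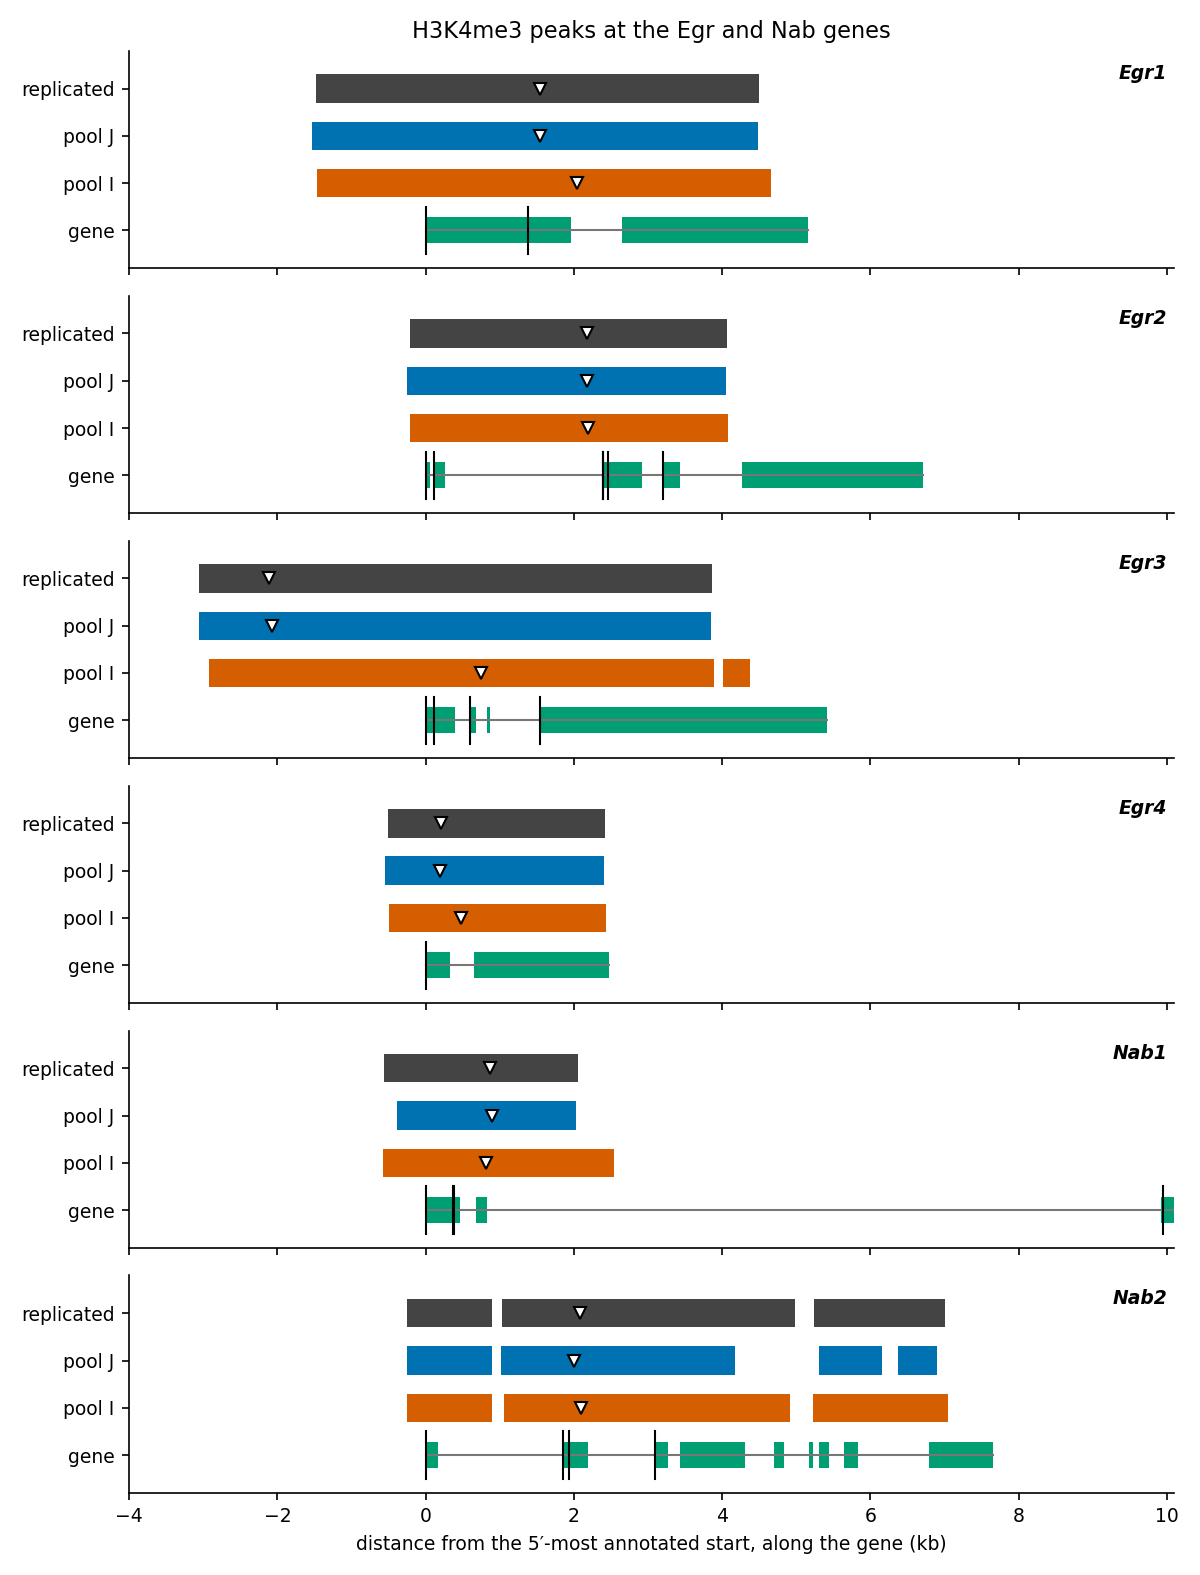
Peaks around each gene in the replicated list, pool J and pool I, drawn by distance in kilobases from the 5′-most annotated start along the direction of transcription. White triangles mark the summit of the strongest promoter peak, green boxes the exons and black ticks the annotated starts; the domain of Egr3 begins 3059 bases before the start, that of Egr4 ends 48 bases before the gene's end in the replicated list, and the Nab2 domain is in pieces. The gene Nab1 continues past the right edge.

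Egr4, the smallest of the 4, has a single annotated transcript on the minus strand of chromosome 6 at 85511121 to 85513589. Its domain of 2925 bases in the replicated list (2950 in pool J, 2921 in pool I, mean 2936 ± 20.5, SD, n = 2) lay over 97.8% of the exon bases and ended 48 bases short of the gene's 3′ end, 67 bases short in pool J and 41 in pool I. In width it ranked at percentiles 74.3, 78.5 and 72.4 of marked genes, so the near-complete cover goes with a gene length at percentile 8.99 of protein-coding genes. Enrichment was the lowest of the 6 in the replicated list, 10.4 at percentile 13.8, with 11.9 in pool J (percentile 16.2) and 18.0 in pool I (percentile 36.4). The summit was 210 bases past the start in the replicated list, 198 in pool J against 473 in pool I. The promoter of Egr4 is shown since it lay wholly in the peak of each list and holds a pair of matches to the core of the cAMP response element, the letters of which are in capitals. It is the RefSeq window of 250 bases before to 50 after the start, on the minus strand at chr6:85513540-85513839 of GRCm38.p6, the assembly that mm10 names.
Egr4 promoter: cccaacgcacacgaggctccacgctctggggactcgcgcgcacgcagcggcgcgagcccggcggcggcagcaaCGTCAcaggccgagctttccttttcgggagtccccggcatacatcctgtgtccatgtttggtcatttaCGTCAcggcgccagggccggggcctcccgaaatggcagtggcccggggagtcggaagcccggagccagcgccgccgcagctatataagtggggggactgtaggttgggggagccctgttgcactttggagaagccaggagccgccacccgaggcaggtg
The core searched was TGACG on either strand. The matches here are of the reverse complement, CGTCA, and begin 177 and 109 bases before the start. Of 32851 RefSeq promoters of that length, 20.8% held at least 1 such core and 5.01% at least 2.

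Egr2, the Egr factor of Schwann cell myelination and hindbrain patterning, lies on the plus strand of chromosome 10 at 67535475 to 67542188. It had the steadiest width of the 6 beside Egr4, 4274 bases in the replicated list, 4308 in pool J against 4279 in pool I (mean 4294 ± 20.5, SD, n = 2), at percentiles 90.3, 92.7 and 89.5. This was below where the widest 5% of marked genes begin in each list. The domain began 208 bases upstream of the 5′-most start and ended 2648 bases before the gene's end, so that 28.1% of the exon bases lay under it, the last and longest exon being free of peaks. The summit lay in the middle of the domain, 216 bases upstream of the start of transcript Egr2-201 in the replicated list, 221 in pool J against 201 in pool I, and 2178, 2173 and 2193 bases past the 5′-most start. Enrichment was 20.0 at percentile 45.6 in the replicated list, 20.6 at percentile 50.1 in pool J and 17.1 at percentile 32.2 in pool I. The promoter of the Egr2-201 start is shown since that window held the summit in each list. It is on the plus strand at chr10:67537619-67537918, and capitals mark a CArG box, the site of serum response factor, and 2 cores of the cAMP response element.
Egr2 promoter: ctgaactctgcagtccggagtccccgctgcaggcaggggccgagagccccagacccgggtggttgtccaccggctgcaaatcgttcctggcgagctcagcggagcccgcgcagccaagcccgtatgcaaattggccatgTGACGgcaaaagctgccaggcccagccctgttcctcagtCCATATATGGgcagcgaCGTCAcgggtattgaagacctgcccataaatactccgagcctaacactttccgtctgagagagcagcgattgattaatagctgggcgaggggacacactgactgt
The CArG box, CCATATATGG, begins 72 bases before the start, and the cores begin 111 and 55 bases before it. A CArG box was found in 1.63% of the 32851 promoters, searched as a palindrome so that both strands were covered. RefSeq lists 5 windows for Egr2, of which this box recurs in the 3 that overlap each other. Another CArG box, CCTTTTTTGG, begins 72 bases before a start upstream of these, and the window of the most upstream start held none of the motifs searched. The full cAMP response element TGACGTCA, in 1.79% of promoters, and TATAAA, in 13.6%, were in none of the 8 windows of Egr2, Egr4, Nab1 and Nab2.

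Nab2, the corepressor gene known to be induced together with Egr1, lies on the minus strand of chromosome 10 at 127660918 to 127668568. Its domain in the replicated list was built of 3 peaks, 1144, 3953 and 1762 bases wide in the direction of transcription, with gaps of 139 and 252 bases, to 7250 bases in all. In pool I the same 3 peaks gave 7296 bases. In pool J there were 4 peaks, and the gap after the second was 1133 bases, above the merging limit of 1000, so the domain stopped at 4422 bases and the last pair of peaks, 860 and 523 bases wide, was not counted in it. Summed over all its pieces, the gene had 5690 bases under peaks in pool J and 6832 in pool I, with 6859 in the replicated list. The strongest piece was the middle one, with an enrichment of 24.2 in the replicated list, 22.7 in pool J against 25.1 in pool I, at percentiles 67.4, 61.3 and 73.1. The outer pieces had 8.37 and 4.46 in the replicated list. The first piece covers the 5′-most start, of Nab2-204, and the middle one the starts of the other 3 transcripts. Its summit lay 147 bases past the start of Nab2-202 in the replicated list, 61 bases in pool J against 157 in pool I.

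The Nab2 domain was shared. Nemp1, which encodes a nuclear envelope protein and runs the other way on the plus strand, had 4 of its 6 annotated transcript starts in it, the nearest 191 bases from the start of Nab2-201, and the antisense gene Gm16229 had a start in it as well. The other 5 genes had a domain with no start of another gene. Peaks carry no strand, so how much of the domain belongs to Nab2 and how much to Nemp1 cannot be told apart. Stat6, whose annotated 3′ end meets that of Nab2, had its own promoter domain of 2128 bases with an enrichment of 11.1 in the replicated list.

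Nab1 lies on the minus strand of chromosome 1 at 52457294 to 52500679 and had the narrowest domain of the 6 in the replicated list. It was 2624 bases there, 2417 in pool J against 3117 in pool I (mean 2767 ± 495, SD, n = 2), at percentiles 67.1, 64.6 and 76.1. Of its 5 annotated transcripts, 3 started in the peak in each list, and the starts 9943 and 33622 bases further along the gene carried none. Over the 6 genes together, 21 of 23 annotated transcripts started in a peak, these being the 2 that did not. Enrichment was 14.7 at percentile 24.2 in the replicated list, 17.2 at percentile 33.5 in pool J and 23.2 at percentile 62.9 in pool I. The gap between the pools was 29.4 percentile points, at percentile 93.7 of the genes marked in both pools. Its promoter is shown because it held 3 matches to the EGR motif, GCGNGGGCG on either strand, and 1 core of the cAMP response element, all in capitals. The window is on the minus strand at chr1:52500399-52500698, and it lay wholly in the peak of each list.
Nab1 promoter: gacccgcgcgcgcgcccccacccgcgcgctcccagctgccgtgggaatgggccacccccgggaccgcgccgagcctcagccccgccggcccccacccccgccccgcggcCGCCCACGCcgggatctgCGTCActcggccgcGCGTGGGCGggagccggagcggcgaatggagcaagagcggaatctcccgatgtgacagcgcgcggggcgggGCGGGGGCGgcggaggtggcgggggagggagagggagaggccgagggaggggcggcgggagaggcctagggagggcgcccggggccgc
The EGR motifs, CGCCCACGC, GCGTGGGCG and GCGGGGGCG, begin 141, 109 and 38 bases before the start. At least 1 match was found in 5.55% of the 32851 promoters and at least 3 in 0.195%. The 300 bases had a GC content of 81.7%. A match is a string of letters in the reference and no measure of binding. The Nab2 promoter and the Egr2 and Egr4 promoters held no EGR motif in this window, and with 1000 bases before the start Nab2 held 1.

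**Figure D4:**
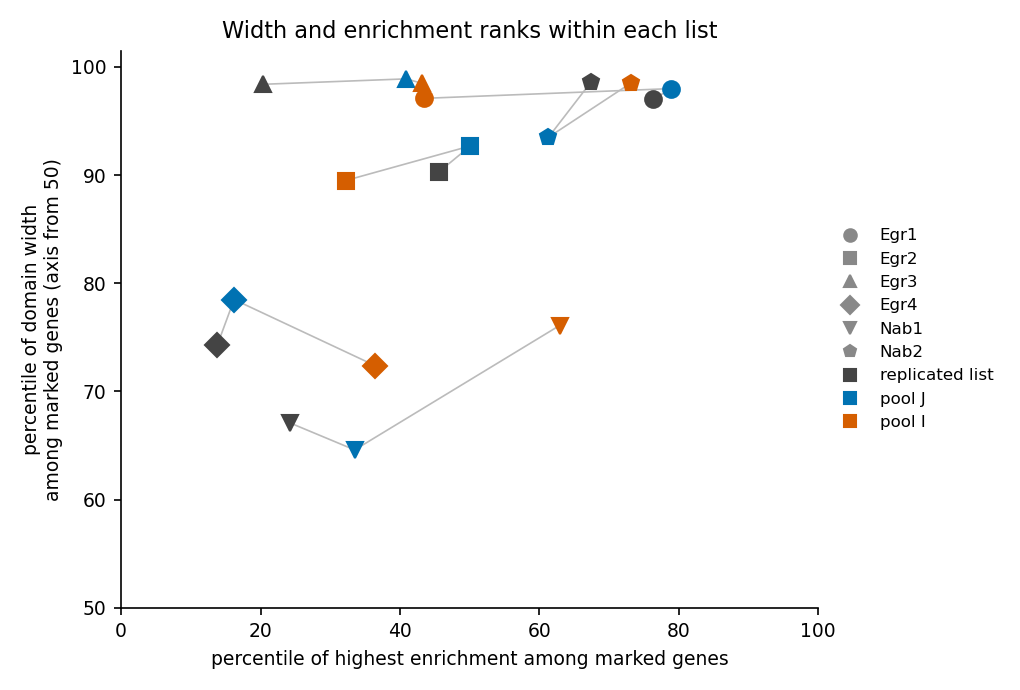
Percentile of domain width (vertical, axis from 50 to 100) against percentile of highest enrichment (horizontal) among the marked genes of each list, with a symbol per gene and a colour per list, joined by thin lines. Widths keep their rank between lists better than enrichments do: Egr1 stays at or above width percentile 97.0 while its enrichment percentile is 78.9 in pool J against 43.5 in pool I.

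The sequence under the domains was richer in GC than the median of marked genes, 54.3%, for 5 of the 6, the exception being Nab1 with 53.3%. Egr4 had 67.3%, at percentile 97.9. The ratio of observed to expected CpG put the genes in another order. Nab1 had 0.861 and Egr4 0.824, at percentiles 95.7 and 92.6, and Nab2 had 0.435, at percentile 14.5, with a median of 0.615 over marked genes. The upstream arms of the wide domains differed from each other: that of Egr3 had 59.5% GC and a CpG ratio of 0.629, and that of Egr1 had 47.0% GC and 0.237.

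Distal peaks, over 1000 bases from every annotated start of any gene, lay within 50 kb of Egr1 (2), Egr2 (1) and Egr4 (2) in the replicated list and of none of Egr3, Nab1 and Nab2. That is 3 of 6 genes, against 44.5% of marked genes, close to the background. Counts of 2 or more were found for 18.5% of marked genes. Of these peaks 1 stood out by size, 25705 bases from the nearest Egr1 start and downstream of the gene, at chr18:34886912-34888420. It was 1509 bases wide with an enrichment of 15.5 in the replicated list, 1207 bases with 14.4 in pool J and 1463 bases with 16.2 in pool I. Among the 7982 distal peaks of the replicated list, whose medians were 496 bases and 3.87, it was at percentile 95.3 in width and 97.1 in enrichment, and 2.89% of marked genes had a distal peak of at least that enrichment within 50 kb. No GENCODE or RefSeq gene overlapped it. The other peak near Egr1 was 209 bases wide with an enrichment of 2.40 and was in neither single-pool list.

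The remaining distal peaks were weak or lay beside another promoter. Near Egr2, a peak of 756 bases with an enrichment of 4.46 lay over an exon of Ado, the gene of a thiol dioxygenase, 1498 bases from its start. It had 544 bases and 4.04 in pool J, and in pool I it was 1 with the Ado promoter peak. Near Egr4, a peak of 1180 bases with an enrichment of 3.41 lay over a coding exon of the F-box gene Fbxo41 and was found in both pools, with 4.10 in pool J against 3.61 in pool I. Another upstream of Egr4, with 765 bases and 2.47, was found in pool I alone. At Egr3, pool I had a peak of 359 bases with an enrichment of 2.89 inside the gene's last exon, part of the merged domain there.

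**Figure D5:**
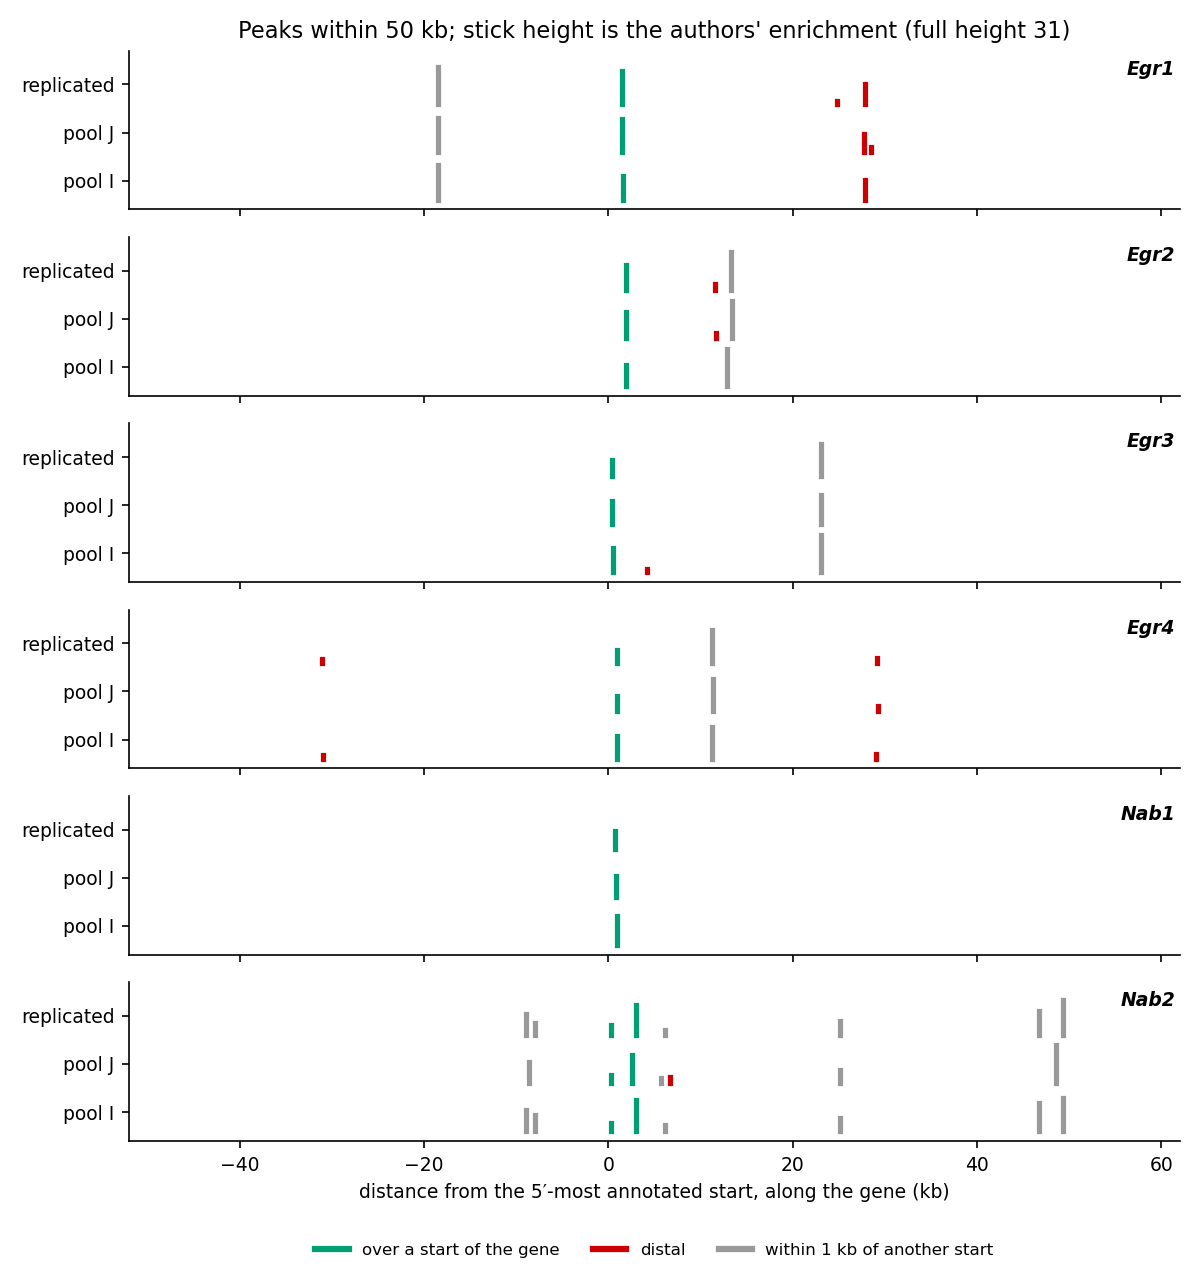
Peaks within 50 kb of each gene's starts in the replicated list, pool J and pool I, placed at their centres by distance in kilobases from the 5′-most start along the direction of transcription. Stick height is the authors' enrichment, and colours mark peaks over a start of the gene (green), distal peaks (red) and peaks within 1000 bases of another start (grey); the tall red stick downstream of Egr1 is the distal peak of enrichment 15.5 in the replicated list, 14.4 in pool J against 16.2 in pool I.

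The marked neighbours had narrower domains than the Egr genes they flank. Beside Egr1, at 5970 bases, Reep2 had 2426 and Etf1 2691 bases. Beside Egr2, at 4274 bases, Nrbf2 had 1836 and Ado 3394. Beside Egr3, at 6921 bases, Bin3 had 1653 bases and Pebp4 was unmarked. Beside Egr4, at 2925 bases, Fbxo41 had 2242 and Alms1 1599. Beside Nab1, at 2624 bases, Nemp2 had 1320. In enrichment the Egr genes were the lower ones in most pairs of the replicated list. Egr1 had 26.0 against 29.3 of Reep2 and 24.4 of Etf1, but in pool I it had 19.5 against 23.7 of Etf1. Egr2 had 20.0 against 27.1 of Nrbf2 and 30.7 of Ado, but in pool J it had 20.6 against 20.4 of Nrbf2. Egr3 had 13.4 against 25.8 of Bin3, with 18.9 against 23.5 in pool J and 19.4 against 29.8 in pool I. Egr4 had 10.4 against 26.3 of Fbxo41 and 27.3 of Alms1 in the replicated list. In pool I, where Egr4 was higher, it had 18.0 against 25.8 and 27.5.

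The genes most like each member in both measures were sought over 6 percentiles, width and enrichment in each of the 3 lists, among 13960 genes, with likeness as the Euclidean distance in percentile points. Nearest to Egr1 were Jarid2 (5.46) and Slitrk5 (5.88), to Egr2 Opcml (6.14) and Rock2 (6.55), and to Nab2, beside Nemp1 in the same domain, Mical2 (4.78). Egr3, Egr4 and Nab1 had no gene as near. Nell2 and Grm3 (12.5) came first for Egr3, Cadm3 (11.7) and Zfyve28 (12.7) for Egr4, and Fbxw11 and Pdia4 (12.1) for Nab1; Nell2 and Fbxw11, given with no distance, were the nearer of their pairs. The members were further from each other than from these, the closest pair being Egr2 and Egr3 at 32.0.

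The 4 Egr genes had a median width of 5122 bases in the replicated list, beside 4953 bases for 15 other immediate early transcription factor genes. All 15 were marked, and 5 were among the widest 5%: Fos, Fosl2, Nr4a3, Npas4 and Ier2. A domain wider than its gene was found at 8 of the 15, against 3.74% of marked genes; all 8 were among the 10 of up to 10 kb, a class in which 15.8% of marked genes had one. Nr4a3, of the orphan nuclear receptors, was the widest with 7599 bases, and Fosl1 the narrowest with 1156. The zinc finger genes whose proteins bind related GC boxes had 9 of 10 marked, with a median of 5026 bases; Klf9 was the widest with 7951 bases, Sp2 the narrowest with 2374, and Wt1 was unmarked.

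The genes that act on Egr promoters and with Nab proteins had common widths. All 16 upstream factors, among them Srf, Creb1 and the kinases of the Erk pathway, were marked, with a median of 2418 bases and 1 in the widest 5%, Mrtfb, a coactivator of serum response factor, with 5856 bases. All 14 NuRD genes were marked, with a median of 2538 bases, and Chd3 with 5765 bases was in the widest 5%. The medians of both lists lay near that of all marked genes, 2124 bases. Of the genes described as Egr targets in neurons, 7 of 8 were marked with a median of 4600 bases and 1 in the widest 5%. Cdk5r1, which encodes the activator p35 of the kinase Cdk5, was the widest with 8460 bases, Ngfr the narrowest with 1792, and Th was unmarked. Of the Egr2 targets of Schwann cells and lymphocytes, 6 of 7 were marked with a median of 1666 bases and none in the widest 5%, and Fasl was unmarked.

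The tissue was checked by markers. Since 65.2% of all protein-coding genes were marked, and the Schwann cell genes were marked too, being marked does not tell these cell types apart here, and widths are given beside it. All 10 cortical neuron genes were marked and 7 were in the widest 5%, with a median of 7896 bases. Of 10 genes of glia and vessels 9 were marked in the replicated list, with a median of 1465 bases. In pool J 8 were marked (median 1890) and in pool I 9 (median 1488). The astrocyte transporter gene Slc1a2, with 6748 bases in the replicated list, was the 1 in the widest 5%. P2ry12 of microglia was unmarked in the replicated list and pool J, but pool I had a peak of 548 bases with an enrichment of 3.37. Cx3cr1, the narrowest, had 211 bases with 3.13 in the replicated list and was unmarked in both pools. All 6 Schwann cell genes were marked, with a median of 1903 bases, and 0 were in the widest 5%. The part of each cell type in the Egr and Nab peaks was not tested.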

How the data were processed

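Per the labels, H3K4me3 was measured in 4 libraries of left cerebral cortex, grouped here by pool, with fragments of 200 to 600 bases. The authors deposited peak lists on mm10: 1 per pool, 1 on the pooled reads (used as an alternative) and 1 replicated list, per the deposited text files. Which aligner and peak caller made them is not given in the sources used here. The read depth is unknown, so no counting interval is given. The enrichment of a deposited peak is a ratio, taken as fold over a control, and ranks were formed within a list only. The deposited −log10 q value served as a filter in an alternative, and the deposited −log10 p value was not used. The replicated list held 25446 peaks, pool J 21573 and pool I 24508, and 24595 replicated peaks had the same position in the pooled-reads list, so the replicated values are not a measurement apart from the pools.

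Starts, exons and gene lengths came from GENCODE release M21. Peaks were assigned by an overlap of at least 1 base with the window of 1000 bases either side of a start, using Python 3.11.15, numpy 2.4.6, pandas 2.3.3 and pysam 0.24.0, and the steps were tested on simulated peaks. Percentiles are among genes marked in the same list. Promoter sequences are those of RefSeq (GRCm38.p6), which held windows for 4 of the 6 genes; Egr1 and Egr3 are named only. No test was run, since there was 1 list per pool; values are descriptions with mean ± SD over 2 pools. Genes named were the 6, their protein-coding neighbours, genes starting in their domains, the widest, narrowest and unmarked of 9 gene lists, and the 2 most alike per gene; broad members, the listed upstream factors Srf and Creb1, and Slc1a2 were named after their values were seen. A few of the genes so chosen are not reported here. The genes and the lists were chosen with earlier results of these data known. Alternatives changed the start window, the starts used, the merging distance, the q filter, the list, the distal radius and the motif window.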

Additional observations from a re-analysis of the deposited data

How the results depend on the processing

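Of 177 alternative values, 142 kept the reported value within the spread between pools or within 1.5-fold for counts, and 35 moved. The single-pool lists that set this spread were themselves among the alternatives, and most replicated peaks had the same position in the pooled-reads list. A change from 3 to 2 genes in the widest 5% counted as kept. The 142 are therefore no independent measure of how stable the values are. All 6 promoters stayed marked under each alternative run, and none of the domains covered its whole gene. No paired analysis was possible because there was 1 peak list per pool and no test. With peaks merged only where they touch, the Nab2 width was 3953 bases and the median 4114, and 2 genes were in the widest 5%, Egr1 and Egr3. With peaks merged up to 2500 bases apart there were also 2, Egr3 and Nab2, since the limit rose to 5981 bases while Egr1 stayed at 5970. With the 5′-most start only, the Nab2 enrichment was 8.37, that of its first piece. Within 20 kb, Egr1 and Egr4 had 0 distal peaks each; within 100 kb, Egr2 had 2, Nab1 1 and Nab2 3. With distal taken as over 2500 bases from a start, Egr2 had 0. At a −log10 q of at least 10, Egr1 had 1, Egr2 0 and Egr4 0, and the pooled-reads list gave Egr1 1. With 1000 bases before the start, the EGR motif was in 8.05% of promoters, the CArG box in 5.62%, the cAMP response element in 2.49%, its core in 39.5% and TATAAA in 45.7%, as a longer window holds more letters.

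With 1 pool left out at a time, so that the list of the other pool alone was read, the median width ranged over 4365 to 5201 bases. Widths ranged over 6019 to 6123 bases for Egr1, 4279 to 4308 for Egr2, 6916 to 7301 for Egr3, 2921 to 2950 for Egr4, and 4422 to 7296 for Nab2. Enrichments ranged over 19.5 to 26.1 for Egr1, 17.1 to 20.6 for Egr2, 18.9 to 19.4 for Egr3, 11.9 to 18.0 for Egr4 and 17.2 to 23.2 for Nab1. Distal peaks ranged over 1 to 2 for Egr1, 0 to 1 for Egr2, 0 to 1 for Egr3, 1 to 2 for Egr4 and 0 to 1 for Nab2. Some of these counts reflect how peaks were split. The second Egr1 peak of pool J, 227 bases with an enrichment of 3.71, overlapped the 1509-base peak of the replicated list. The Nab2 peak was the 523-base piece of pool J described above, over a coding exon of Nab2. The cause of these differences was not tested, apart from the Nab2 width, where the gap of 1133 bases in pool J exceeds the merging limit of 1000 bases. The unknown read depth limits what the absence of a weak peak in a list can show.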
